A study of Mus musculus with 2 samples.

Results

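Retnlg-high neutrophils are skin leukocytes with the neutrophil markers S100a8, S100a9 and Csf3r and at least 3 transcripts of Retnlg, the gene of resistin-like gamma. They were taken from a droplet 3' RNA sequencing data set of CD45+ cells that were sorted from enzyme-digested, full-thickness mouse skin. One pool held cells of skin challenged with DPCP, taken on day 2, and of control skin, taken on day 0. Each condition was 1 tagged sample with its own multiplexing tag. DPCP, diphenylcyclopropenone, is a contact sensitizer that is painted on skin to provoke contact hypersensitivity, and the study's title concerns SPP1+ macrophages and hair growth in that setting. Genotype, strain, age and the number of mice behind each tag are not given in the sources used here.

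Members were chosen by measured values, as counts of unique molecular identifiers (UMIs) in a cell. A cell entered when it had 200 genes or more and no more than 10% of its UMIs from mitochondrial genes. It was gated as a neutrophil with at least 20 UMIs of S100a8 and S100a9 together, at least 1 of Csf3r, none of Cd3e, at most 2 of the 3 C1q genes and fewer than 10 of Ccl3 and Ccl4. Gated cells with 3 or more Retnlg UMIs are called Retnlg-high and those with 0 to 2 Retnlg-low. Of 14146 barcodes 12558 were kept, 7588 from DPCP and 4970 from control skin. Of these, 1592 were Retnlg-high, 1507 from DPCP and 85 from control skin, and 1067 were Retnlg-low, 1046 from DPCP and 21 from control skin. Because each condition is 1 tagged sample and cells are not replicates, no test was made. Every interval below is an exact 95% interval that covers counting error only.

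Neutrophils are short-lived granulocytes that mature in the bone marrow, where they make the proteins of their granules in successive waves, and then pass through the blood into inflamed tissue. Mature marrow and blood neutrophils of the mouse carry Ly6G on the surface. Retnlg is known in the mouse as a secreted protein of marrow, blood and neutrophils. In tissue, neutrophils start to make cytokines and genes of stress and metal handling. The label under which these cells were proposed calls them freshly recruited, but no file measures how long a cell had been in the skin, so they are called here by the rule alone. The markers given with that label are Retnlg, Ly6g, Mmp8 (neutrophil collagenase of specific granules), Wfdc21 (a small secreted protein of the whey acidic protein family) and Pglyrp1 (a peptidoglycan-binding granule protein).

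In the GENCODE M21 annotation of mm10, Retnlg lies on chromosome 16, 48872621 to 48874496, plus strand. Ly6g lies on chromosome 15, 75155240 to 75159126, Mmp8 on chromosome 9, 7558456 to 7568485, Wfdc21 on chromosome 11, 83746940 to 83752642, and Pglyrp1 on chromosome 7, 18871331 to 18890459, all on the plus strand. The promoters of the 4 of these genes that RefSeq's table holds are shown, since they are the markers that define the label. Each runs from 250 bases before to 50 bases after a gene start in RefSeq GRCm38.p6, plus strand. Capitals mark matches on either strand to TTGCNNAA, a pattern of the C/EBP factors that drive granule genes, or to GAGGAAGT, a pattern of PU.1.
Retnlg, chr16:48872358-48872657: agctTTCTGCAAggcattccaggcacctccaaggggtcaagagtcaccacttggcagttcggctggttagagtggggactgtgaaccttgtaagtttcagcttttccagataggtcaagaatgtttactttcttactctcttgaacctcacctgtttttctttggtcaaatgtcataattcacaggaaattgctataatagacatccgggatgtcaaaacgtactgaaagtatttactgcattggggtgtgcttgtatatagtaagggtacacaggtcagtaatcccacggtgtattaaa
Ly6g, chr15:75155011-75155310: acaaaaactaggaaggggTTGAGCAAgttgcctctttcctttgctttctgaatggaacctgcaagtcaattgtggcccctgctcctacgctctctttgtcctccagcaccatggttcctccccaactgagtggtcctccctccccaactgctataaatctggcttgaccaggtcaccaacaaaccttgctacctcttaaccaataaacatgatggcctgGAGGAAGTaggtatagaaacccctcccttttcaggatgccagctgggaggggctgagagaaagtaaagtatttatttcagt
Mmp8, chr9:7558179-7558478: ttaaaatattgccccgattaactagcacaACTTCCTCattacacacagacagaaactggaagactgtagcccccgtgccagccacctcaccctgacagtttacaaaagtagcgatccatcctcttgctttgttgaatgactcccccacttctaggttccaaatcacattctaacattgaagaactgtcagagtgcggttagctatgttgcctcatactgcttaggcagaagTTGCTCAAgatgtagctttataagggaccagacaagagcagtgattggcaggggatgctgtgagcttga
Pglyrp1, chr7:18884440-18884739: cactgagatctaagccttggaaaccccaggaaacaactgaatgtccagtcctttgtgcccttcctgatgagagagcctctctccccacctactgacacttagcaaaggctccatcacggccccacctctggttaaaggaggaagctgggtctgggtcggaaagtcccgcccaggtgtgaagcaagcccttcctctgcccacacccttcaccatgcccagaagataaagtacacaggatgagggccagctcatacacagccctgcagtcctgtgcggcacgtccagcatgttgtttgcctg
The Retnlg window held 1 match to TTGCNNAA, the Ly6g window 1 match to each pattern, and the Mmp8 window 1 match to each, and no match overlapped another. The Pglyrp1 window held neither pattern, and a second Ly6g start held 2 matches to GAGGAAGT. Over the 32544 windows of the table, TTGCNNAA was found in 10.8% and GAGGAAGT in 3.11%. A match is only a description of the letters, and binding was not measured.

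S100a8 and S100a9, the subunits of calprotectin, helped to choose the cells and are given as a description. They made up 11.7% of all UMIs in Retnlg-high and 4.14% in Retnlg-low cells of DPCP skin, and 6.03% in Retnlg-high and 0.653% in Retnlg-low cells of control skin. Csf3r, the receptor for the granulocyte growth factor G-CSF, stood at 3702 CPM (UMIs of the gene per 1000000 summed UMIs) in Retnlg-high cells of DPCP skin and 3265 CPM in those of control skin. T cells of the same matrix, gated by Cd3e and Cd3g without Csf3r, had 633 CPM of S100a9 in DPCP skin, and 8 of 157 of them held 20 or more UMIs of S100a8 and S100a9. Whether that level is free RNA or mixed droplets was not tested. In Retnlg-high cells of DPCP skin the T cell list summed to 39.3 CPM, against 3553 CPM in gated T cells, with Cd3e at 0 by the gate. The eosinophil list summed to 13.8 CPM with Epx and Prg2 at 0, and the mast cell and basophil list to 17.3 CPM with Mcpt8 at 0. Langerhans cell, B cell, keratinocyte, fibroblast and endothelium, and red cell lists each summed to between 1.47 and 12.2 CPM.

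Markers of antigen-presenting cells stood higher. The 6 macrophage markers summed to 524 CPM in Retnlg-high cells of DPCP skin and 967 CPM in those of control skin. The 6 monocyte markers summed to 957 CPM in Retnlg-high cells of DPCP skin and 3090.0 CPM in those of control skin, and the 6 dendritic cell markers to 2290.2 CPM in DPCP and 8831 CPM in control members. For comparison, C1q-positive macrophages of DPCP skin had 4180.4 CPM of the monocyte and 21298 CPM of the dendritic cell list. Gated T cells of DPCP skin had 744 CPM of the macrophage, 1077 CPM of the monocyte and 4844 CPM of the dendritic cell list. Each of these sums lay above that of the DPCP members, and the part of such a background in the members was not tested. Some cells held many such UMIs: 47 of 1507 Retnlg-high cells of DPCP skin and 14 of 85 of control skin had 20 or more UMIs of Cd74, H2-Aa, H2-Ab1 and H2-Eb1, the genes of MHC class II presentation. Those cells held 9.90% of the UMIs of the DPCP members and 46.1% of the UMIs of the control members. Without them the macrophage sum was 476 CPM in DPCP and 565 CPM in control members, the monocyte sum 806 CPM in DPCP and 649.8 CPM in control members, and the dendritic cell sum 1243 CPM in DPCP and 1695 CPM in control members. The dendritic cell list holds Cd74, H2-Aa, H2-Ab1 and H2-Eb1, so its fall was set in part by the rule that chose these cells. In DPCP members the macrophage and monocyte sums thus lay mostly outside these cells. Among Retnlg-low cells they were 32 of 1046 in DPCP skin, with 10.5% of the UMIs, and 7 of 21 in control skin, with 80.8%. Whether they are doublets was not tested, and results are therefore given with and without these class II-rich cells wherever they change.

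Retnlg-high cells of DPCP skin held a median of 4359 UMIs and 1609 genes, and those of control skin 3321 UMIs and 1445 genes. Retnlg-low cells held 3163.5 UMIs in DPCP skin and 3199 in control skin. Mitochondrial UMIs had a median of 0.391% in Retnlg-high and 0.388% in Retnlg-low cells of DPCP skin. A cell's own tag made up a median of 79.0% of its tag UMIs in the Retnlg-high cells of DPCP skin and 93.9% in those of control skin. No barcode sequence was shared between the tagged samples.

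Most gated neutrophils were Retnlg-high in either skin. They made up 59.0% of gated cells in DPCP skin (57.1 to 60.9) and 80.2% in control skin (71.3 to 87.3). Of all kept cells they were 19.9% (19.0 to 20.8) in DPCP skin and 1.71% (1.37 to 2.11) in control skin. The gate leaves out cells with 10 or more Ccl3 and Ccl4 UMIs, which numbered 1599 in DPCP and 5 in control skin. With these included, cells with 3 or more Retnlg UMIs were 47.4% (45.9 to 48.9) of 4152 neutrophils in DPCP skin and 77.5% (68.6 to 84.9) of 111 in control skin. After each gated cell was thinned to 1000 UMIs, which left out 5 DPCP cells and 1 control cell, at least 1 Retnlg UMI was found in 60.2% (58.2 to 62.1) in DPCP and 78.1% (69.0 to 85.6) in control skin. A thinned minimum of 3 gave 41.2% (39.3 to 43.1) in DPCP and 48.6% (38.7 to 58.5) in control skin, whose intervals overlap. In gated T cells, at a median of 7487 UMIs in both conditions, 1.91% (3 of 157) in DPCP and 0 of 211 in control skin reached 3 Retnlg UMIs, where the 0 allows a share of up to 1.73%. At least 1 UMI was found in 22.3% of T cells in DPCP and 20.4% in control skin, so single Retnlg UMIs were also found outside neutrophils.

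**Figure D1:**
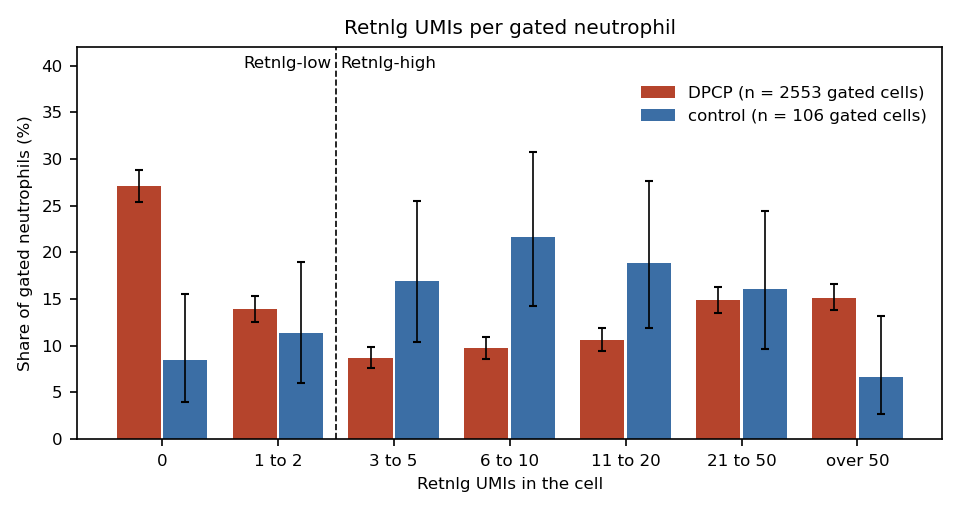
Share of gated neutrophils (%, vertical axis) by Retnlg UMIs in the cell (horizontal axis), with DPCP skin (2553 cells) left of control skin (106 cells) in each pair, bars for the share and lines for the exact 95% binomial interval. Cells without Retnlg were 27.1% of DPCP and 8.49% of control neutrophils, and the dashed line marks the limit between Retnlg-low and Retnlg-high cells.

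Retnlg varied widely among the members. The median was 21 UMIs in DPCP skin with a highest cell of 552, and 12 UMIs in control skin with a highest cell of 254. As the plot of Retnlg UMIs per cell shows, gated DPCP cells spread over the whole range, with 691 cells at 0 and 387 above 50, and with no gap at the limit. Control cells lay mostly between 3 and 50 UMIs, with 9 of 106 at 0 and 7 above 50. Depth moved with Retnlg: cells with over 50 Retnlg UMIs had a median of 6266 UMIs in DPCP skin, and those with none 3043. The 75 DPCP cells with exactly 3 Retnlg UMIs had a median of 3303 UMIs and the 116 with exactly 2 had 3512.5. Just inside the limit Wfdc21 stood at 723 CPM, Pglyrp1 at 517, Ly6g at 20.8 and Spp1 at 1035, and just outside it at 610, 479, 40.1 and 1254 CPM in the same order, all without Retnlg in the total. These levels come from those 75 and 116 cells and were given no interval. For Ly6g they rest on few UMIs, and a difference across the limit was not tested.

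The first comparison sets Retnlg-high against Retnlg-low neutrophils within DPCP skin, where both come from 1 tagged sample. Most measured specific granule genes, which include the label markers Mmp8, Pglyrp1 and Wfdc21, were higher in Retnlg-high cells on both scales given below. Most measured cytokine, chemokine and growth factor genes and tissue-stage genes were lower on both scales. Of the neutrophil identity genes that were higher, S100a8, S100a9 and Csf3r belong to the gate and Ly6g to the label. A gene is called higher or lower here at a ratio of at least 1.5 in either direction with an interval that excludes 1. Of 9429 genes with at least 50 summed UMIs, 681 were called higher (7.22%) and 3336 lower (35.4%). The median gene was lower by a log2 ratio of -0.42. With the median gene set to equal levels, 1592 genes were higher and 1154 lower, so that the share of higher among all called genes was 17.0% without and 58.0% with this scaling. Counts for gene lists are therefore given on both scales. Each is to be read beside the counts of all genes, 7.22% higher and 35.4% lower without scaling. With scaling those were 1592 higher and 1154 lower of 9429 genes.

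The markers of the label were all higher in Retnlg-high cells. Retnlg itself, which chose the cells, stood at 7672 CPM (7612 to 7732) in Retnlg-high and 105 CPM (95.7 to 115) in Retnlg-low cells. Ly6g was at 132 CPM in Retnlg-high and 13.4 CPM in Retnlg-low cells, a ratio of 9.88 (7.62 to 13). Wfdc21 was at 1989.5 CPM in Retnlg-high and 482 CPM in Retnlg-low cells (ratio 4.13, 3.95 to 4.32). Pglyrp1 was at 960.0 CPM in Retnlg-high and 254 CPM in Retnlg-low cells (ratio 3.78, 3.56 to 4.03), and Mmp8 at 526 CPM in Retnlg-high and 206 CPM in Retnlg-low cells (ratio 2.56, 2.38 to 2.75). These 4 genes come from the label and were proposed with results of these data in view, so their direction adds no independent support. Ly6g is a low transcript even in members: at a fixed 1000 UMIs per cell it was found in 9.11% (7.70 to 10.7) of Retnlg-high and 1.44% (0.806 to 2.36) of Retnlg-low cells, and in 28.1% and 3.82% of them before thinning. No Ly6g UMI was found in 157 T cells of DPCP skin.

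The granule lists are taken in the order in which their proteins are made. Of the azurophil granule and precursor list, which covers the earliest marrow stages, Mpo, Elane, Ctsg and Ms4a3 (myeloperoxidase, the granule serine proteases and a progenitor membrane protein) were nearly absent, with at most 1 UMI each in Retnlg-high and at most 5 in Retnlg-low cells. Of its 4 measured genes the cycling gene Top2a was higher and Prtn3 and Cebpe lower, and with median scaling 2 were higher and 1 lower. Of 11 measured specific granule genes 8 were higher and 3 lower, with a median log2 ratio of 1.26, and with median scaling 8 and 2. Among the 8 were Mmp8, Pglyrp1 and Wfdc21, which are also markers of the label. Lcn2, the iron-siderophore binder lipocalin-2, stood at 1344 CPM in Retnlg-high and 562 CPM in Retnlg-low cells (ratio 2.39, 2.29 to 2.50). Hp, the haemoglobin binder haptoglobin, had 936 CPM in Retnlg-high and 405 CPM in Retnlg-low cells (ratio 2.31, 2.20 to 2.44). Ngp, a neutrophil granule protein of late marrow precursors, was low but had 33.2 CPM in Retnlg-high and 4.01 CPM in Retnlg-low cells (ratio 8.27, 5.13 to 14.2). It was found in 120 of 1507 Retnlg-high cells, with 43.7% of its UMIs there in 10 cells, and had 18 UMIs in Retnlg-low cells. The 3 lower genes were Ltf (lactoferrin), Chil3 and Cybb (the catalytic subunit of the phagocyte oxidase). Chil3, a chitinase-like protein shared with monocytes, had 188 CPM in Retnlg-high and 851 CPM in Retnlg-low cells (ratio 0.221, 0.209 to 0.235), and 44.9% of its UMIs in Retnlg-high cells lay in 10 cells. Of 10 gelatinase granule and secretory vesicle genes 4 were higher and 1 lower, and with median scaling 5 and 0. Mmp9, the gelatinase, stood at 1203 CPM in Retnlg-high and 458 CPM in Retnlg-low cells (ratio 2.63, 2.51 to 2.76), and Padi4, which citrullinates histones when neutrophils cast chromatin traps, at 191 CPM in Retnlg-high and 45.7 CPM in Retnlg-low cells (ratio 4.17, 3.60 to 4.85).

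Neutrophil identity genes were higher in 7 of 12 and lower in none, and with median scaling in 8 of 12. The 7 were S100a8, S100a9 and Csf3r of the gate, the label marker Ly6g, and Cxcr2, Mmp9 and Hdc. S100a9 stood at 58778 CPM in Retnlg-high and 19639 CPM in Retnlg-low cells (ratio 2.99, 2.97 to 3.01), although both groups passed the same minimum for it. Csf3r had 3702 CPM in Retnlg-high and 2033 CPM in Retnlg-low cells (ratio 1.82, 1.78 to 1.86). Cxcr2, the receptor for the chemokines that draw neutrophils, had 1624 CPM in Retnlg-high and 859.6 CPM in Retnlg-low cells (ratio 1.89, 1.82 to 1.96).

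Among 21 trafficking receptors 6 were higher and 4 lower, and with median scaling 7 and 2. Without scaling, the share lower lay below the 35.4% of all genes and the share higher above the 7.22%. The list's median log2 ratio was -0.13 and turned to 0.29 with median scaling. Selplg, the P-selectin ligand, was at 1033 CPM in Retnlg-high and 571 CPM in Retnlg-low cells (ratio 1.81, 1.73 to 1.89). Cxcr4, which holds neutrophils in marrow and rises as they age, was lower, at 228 CPM in Retnlg-high and 393 CPM in Retnlg-low cells (ratio 0.579, 0.542 to 0.618). Icam1, an adhesion ligand that activated cells show, had 47.2 CPM in Retnlg-high and 150.5 CPM in Retnlg-low cells (ratio 0.314, 0.276 to 0.356), and Ptafr, the receptor for platelet-activating factor, 271 CPM in Retnlg-high and 596 CPM in Retnlg-low cells (ratio 0.454, 0.429 to 0.481).

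Secreted mediators were mostly lower in Retnlg-high cells: 13 of 18 measured cytokine, chemokine and growth factor genes were lower and 3 higher, with a median log2 ratio of -1.37, and with median scaling 12 and 4. Spp1, the gene of osteopontin, which is secreted and binds integrins, had 452 CPM (438 to 467) in Retnlg-high and 1956 CPM (1915 to 1997) in Retnlg-low cells, a ratio of 0.231 (0.222 to 0.240). T cells of DPCP skin had 275 CPM of Spp1. At 1000 UMIs per cell Spp1 was found in 14.0% (12.2 to 15.8) of Retnlg-high and 37.6% (34.7 to 40.7) of Retnlg-low cells and in 8.92% (4.96 to 14.5) of T cells, and in 37.1%, 56.3% and 35.7% of them before thinning. Cxcl2, a ligand of Cxcr2, had 1435 CPM in Retnlg-high and 3536 CPM in Retnlg-low cells (ratio 0.406, 0.396 to 0.416). Il1rn, the interleukin-1 receptor antagonist, had 373 CPM in Retnlg-high and 1253 CPM in Retnlg-low cells (ratio 0.298, 0.285 to 0.311), while Il1b did not pass the rule, at 3389 CPM in Retnlg-high and 3242 CPM in Retnlg-low cells (ratio 1.05, 1.02 to 1.07). Tnf had 18.4 CPM in Retnlg-high and 79.6 CPM in Retnlg-low cells (ratio 0.232, 0.190 to 0.281), and Csf1, the macrophage growth factor, 95.6 CPM in Retnlg-high and 352 CPM in Retnlg-low cells (ratio 0.271, 0.249 to 0.296). The 3 higher genes were Ccl6, Osm and Tnfsf14. Ccl6, a chemokine of myeloid cells, had 1392 CPM in Retnlg-high and 648 CPM in Retnlg-low cells (ratio 2.15, 2.06 to 2.24), and Osm, an interleukin-6 family cytokine, 177 CPM in Retnlg-high and 113 CPM in Retnlg-low cells (ratio 1.56, 1.41 to 1.73). Ccl3 and Ccl4 were also lower, Ccl3 at 87.0 CPM in Retnlg-high and 299.9 CPM in Retnlg-low cells and Ccl4 at 131 CPM in Retnlg-high and 354 CPM in Retnlg-low cells, in cells that the gate had limited for both.

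Lists of the cell's own response to inflammatory signals differed from one another. Of 14 NF-kappaB feedback genes 9 were lower and none higher, and with median scaling 6 were lower and 1 higher. Nfkbia, the inhibitor that NF-kappaB induces, had 403 CPM in Retnlg-high and 921 CPM in Retnlg-low cells (ratio 0.437, 0.418 to 0.458). Among 18 pattern recognition and Fc receptor genes 5 were lower and none higher, but with median scaling 4 were lower and 4 higher. That share lies below the 35.4% of all genes that were lower. Of the 5, Cd14, the co-receptor for endotoxin, had 499 CPM in Retnlg-high and 1625 CPM in Retnlg-low cells (ratio 0.307, 0.295 to 0.319), and Tlr4, the endotoxin receptor, 207 CPM in Retnlg-high and 476 CPM in Retnlg-low cells (ratio 0.436, 0.409 to 0.465). Of 14 AP-1 and immediate early genes 4 were lower, likewise a share below that of all genes, and 1, Fos, higher, and with median scaling 4 were lower and 4 higher. Of 14 survival and death genes 8 were lower and 1 higher, and with median scaling 6 and 3. Bcl2l11, which encodes the death-promoting BIM, had 123 CPM in Retnlg-high and 415 CPM in Retnlg-low cells (ratio 0.296, 0.274 to 0.320), and Mcl1, on which neutrophil survival depends, did not pass the rule, at 1589 CPM in Retnlg-high and 1327 CPM in Retnlg-low cells.

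The list of genes described in neutrophils that have stayed in tissue was lower in 17 of 22 and higher in 1, with a median log2 ratio of -1.44, and with median scaling in 16 and 2. Thbs1, the matrix glycoprotein thrombospondin-1, had 326 CPM in Retnlg-high and 1313 CPM in Retnlg-low cells (ratio 0.248, 0.237 to 0.260). Fth1, the ferritin heavy chain, had 4459 CPM in Retnlg-high and 13254 CPM in Retnlg-low cells (ratio 0.336, 0.332 to 0.341), Slc7a11, the cystine importer that feeds glutathione, 505 CPM in Retnlg-high and 1927 CPM in Retnlg-low cells (ratio 0.262, 0.252 to 0.272), and Cd274, the checkpoint ligand PD-L1, 111 CPM in Retnlg-high and 299.6 CPM in Retnlg-low cells (ratio 0.370, 0.340 to 0.403). The single higher gene was Gpnmb, a membrane glycoprotein of macrophages, which had 62 UMIs in all Retnlg-high cells and 9 once the class II-rich cells were left out. Of 22 measured hypoxia and glycolysis genes 9 were lower and 2 higher, and with median scaling 2 and 2. Without scaling, these shares lay near those of all genes, 35.4% lower and 7.22% higher. The 2 higher ones were Slc2a3, a high-affinity glucose transporter, at 381 CPM in Retnlg-high and 109 CPM in Retnlg-low cells (ratio 3.50, 3.18 to 3.86), and Gpi1, a glycolytic enzyme. Of 19 type I interferon response genes 5 were higher and 1 lower, and with median scaling 12 and 1. Ifitm1, an interferon-inducible membrane protein, was one of the most abundant of them at 5418 CPM in Retnlg-high and 2315 CPM in Retnlg-low cells (ratio 2.34, 2.29 to 2.39), and Oasl2 had 477 CPM in Retnlg-high and 257 CPM in Retnlg-low cells (ratio 1.85, 1.74 to 1.98).

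The ribosomal and motility lists depended more on the scale. The ribosomal list was taken by symbol and also holds S6 kinase genes such as Rps6ka6 and Rps6kl1, which are not ribosomal proteins. Of its 88 measured symbols 61 were lower and none higher, at a median log2 ratio of -0.69. With median scaling 9 were lower and 2 higher, at -0.28. Of 19 actin and motility genes 1 was higher and 1 lower, and 8 and 1 with median scaling. Without scaling, both of these shares lay below those of all genes. Of 7 NADPH oxidase genes, which make the respiratory burst, Rac2 was higher (646 CPM in Retnlg-high and 324 CPM in Retnlg-low cells) and Cybb lower (189 CPM in Retnlg-high and 449.7 CPM in Retnlg-low cells), and with median scaling 3 were higher and 1 lower. Of 20 transcription factors 1 was higher and 5 lower, and with median scaling 6 and 2. Without scaling, neither share exceeded that of all genes, 7.22% higher and 35.4% lower. The higher one was Cebpd at 330.4 CPM in Retnlg-high and 189 CPM in Retnlg-low cells (ratio 1.75, 1.62 to 1.89), and Cebpe, which acts in marrow precursors, was among the lower ones at 7.25 CPM in Retnlg-high and 12 CPM in Retnlg-low cells.

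**Figure D2:**
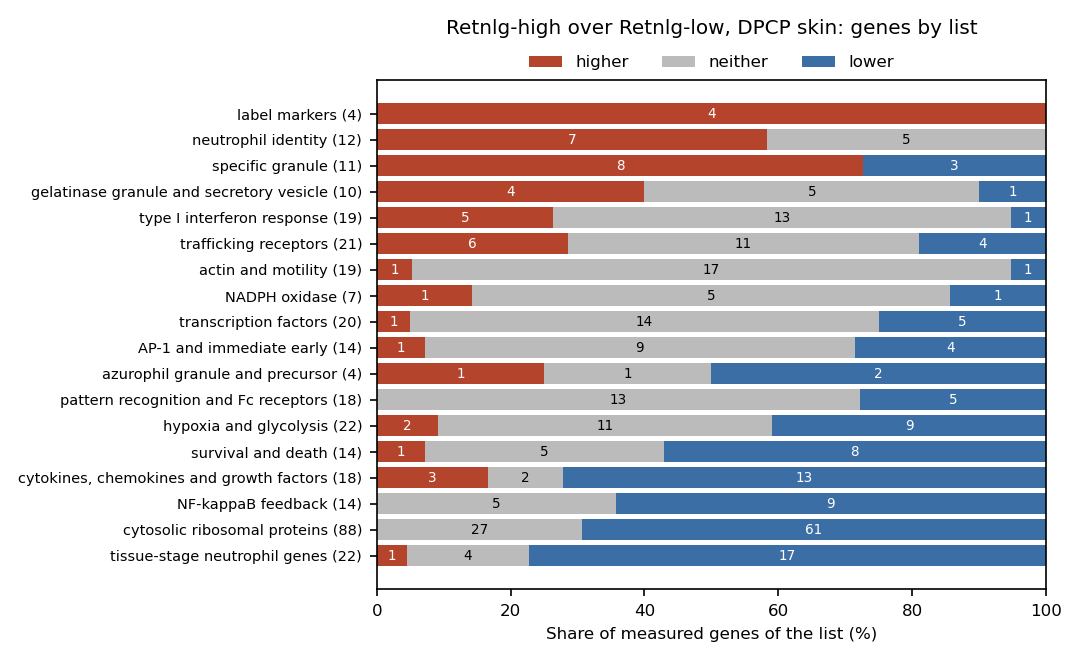
Share of the measured genes of each list (horizontal axis, %, number measured in parentheses) that were called higher, neither or lower in Retnlg-high over Retnlg-low neutrophils of DPCP skin, with the gene count in each bar segment and Retnlg left out. Specific granule genes were higher in 8 of 11, and tissue-stage genes lower in 17 of 22.

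The genes with the highest and lowest ratios are drawn in the plot of named genes. Besides Retnlg, Ly6g, Wfdc21 and Padi4, those with the highest ratios included Scrg1, first described in scrapie-infected brain, at 185 CPM in Retnlg-high and 23.0 CPM in Retnlg-low cells (ratio 8.07, 6.61 to 9.96). Bmx, a TEC-family tyrosine kinase, had 179 CPM in Retnlg-high and 37.5 CPM in Retnlg-low cells (ratio 4.78, 4.07 to 5.64), and Rflnb, a filamin-binding protein, 94.0 CPM in Retnlg-high and 16.7 CPM in Retnlg-low cells (ratio 5.62, 4.43 to 7.23). Cmah, which hydroxylates sialic acid, had 245 CPM in Retnlg-high and 53.1 CPM in Retnlg-low cells (ratio 4.62). Cstdc5, a cystatin-domain gene with close copies that share reads, had a ratio of 26.9 (14.5 to 56.4), with 53.5% of its UMIs in 10 cells. Asb7, Atxn10, Rnf144a, Zfand4 and Mgam had ratios between 3.85 and 5.49. Mfge8, a bridging protein for the uptake of dying cells, belonged to a few cells: 87.7% of its UMIs in Retnlg-high cells were in class II-rich cells, and without those its log2 ratio was -0.062 in place of a ratio of 4.59.

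The lowest ratios were those of Mmp12, the macrophage elastase, at 4.42 CPM in Retnlg-high and 159 CPM in Retnlg-low cells, but 97.1% of its UMIs in Retnlg-low cells lay in the class II-rich ones. Without those the ratio was 0.417 (0.203 to 0.839) on 16 UMIs in Retnlg-high and 21 UMIs in Retnlg-low cells, too few for the rule. Mmp19, another metalloproteinase, had 55.9% of its Retnlg-low UMIs in such cells and a ratio of 0.148 with and 0.264 without them. The others were spread over more cells, though 48.6% of the Retnlg-low UMIs of Pdpn lay in 10 cells and 34.2% in class II-rich ones. Hilpda, a lipid droplet protein induced by hypoxia, had 16.8 CPM in Retnlg-high and 96.1 CPM in Retnlg-low cells (ratio 0.175, 0.143 to 0.213), Srxn1, which repairs oxidised peroxiredoxins, 9.09 CPM in Retnlg-high and 53.3 CPM in Retnlg-low cells (ratio 0.171), and Pdpn, the membrane mucin podoplanin, 8.97 CPM in Retnlg-high and 63.3 CPM in Retnlg-low cells (ratio 0.142). Cxcl3, another ligand of Cxcr2, had 162 CPM in Retnlg-high and 686 CPM in Retnlg-low cells (ratio 0.237, 0.222 to 0.252). Havcr2 (the checkpoint receptor TIM-3), Nt5e (the adenosine-forming enzyme CD73), Abcc1, Cped1, Lhfpl2 and Adgb had ratios between 0.134 and 0.229, with levels of at most 31.1 CPM in Retnlg-high cells.

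**Figure D3:**
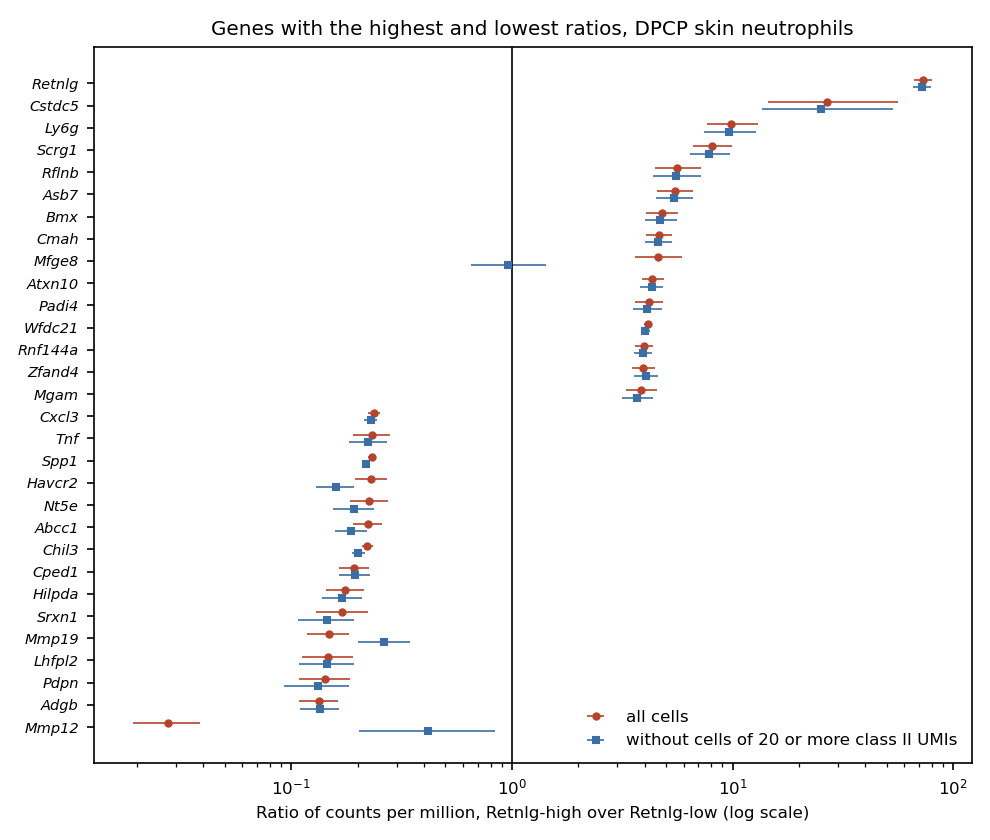
Ratio of CPM in Retnlg-high over Retnlg-low neutrophils of DPCP skin (log axis) for the 15 genes with the highest and the 15 with the lowest ratio, as points with exact 95% intervals, for all cells (circles) and without cells of 20 or more class II UMIs (squares). Mfge8, Mmp12 and Mmp19 shift between the circles and the squares, with Mfge8 at a ratio of 4.59 for all cells and below 1 without the class II-rich ones.

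The levels were also taken over 7 steps of Retnlg in gated DPCP cells, from 0 to over 50 UMIs, with Retnlg left out of the total. Ly6g stood at 11.3, 16.8, 19.2, 28.1, 67.6, 129 and 239 CPM, so most of its increase lay above 10 Retnlg UMIs. Wfdc21 stood at 415, 595, 895, 1245, 1557, 2057 and 2788 CPM and was higher at each step. Mmp8 was at 213 CPM without Retnlg, 128 CPM at 3 to 5 UMIs and 956 CPM above 50, so that its high level was a feature of the last step. Ngp went with the last step as well, at 75.8 CPM against 17.2 CPM in the step before. Csf3r, Cxcr2 and Ifitm1 had their highest level in the middle, at 4376 CPM for Csf3r and 1797 CPM for Cxcr2 in cells with 6 to 10 Retnlg UMIs and 6119 CPM for Ifitm1 in cells with 11 to 20. Their levels above 50 UMIs were 3277, 1631 and 5246 CPM.

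Spp1 stood at 2276, 1414, 838, 354, 433, 533 and 313 CPM over the same steps, with most of its decrease below 6 Retnlg UMIs. Thbs1 was at 1570.1 CPM in cells without Retnlg and 183 CPM above 50 UMIs, Cd14 at 1923 and 386 CPM, and Il1rn at 1469 and 270.0 CPM. Il1b had 3238 CPM without Retnlg, 4257 CPM at 3 to 5 UMIs and 2905 CPM above 50. Wfdc17, a secreted protein of the same family as Wfdc21, reached its plateau at 6 to 10 UMIs, with 1534 CPM at 0, 5895 CPM there and 5976 CPM above 50. The cells of neighbouring steps differ in depth, and its part in these levels was not tested. A narrower range of depth was also taken, between the quartiles of the Retnlg-high cells (3164.5 to 5860.25 UMIs), within which depth still varies. There the Retnlg-high over Retnlg-low ratio was 7.38 (5.03 to 11.2) for Ly6g, 3.28 for Mmp8, 0.105 for Spp1 and 0.194 for Thbs1.

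**Figure D4:**
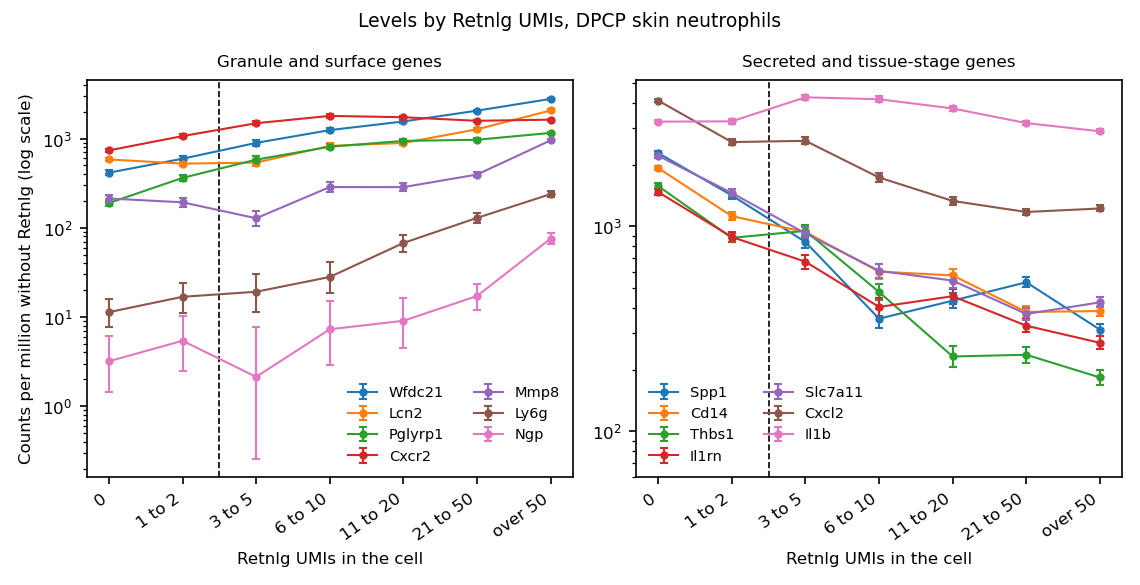
CPM without Retnlg (log axis) in gated neutrophils of DPCP skin by Retnlg UMIs in the cell (horizontal axis, low to high), as points with exact 95% Poisson intervals, for 7 granule and surface genes (left) and 7 secreted and tissue-stage genes (right). Ly6g climbs to 239 CPM above 50 Retnlg UMIs, while Spp1 declines to 354 CPM at 6 to 10 UMIs and lies between 313 and 533 CPM beyond.

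Neutrophils rich in Ccl3 and Ccl4, which the gate left out, were set beside the members because 28.8% of them (461 of 1599 in DPCP skin) also held 3 or more Retnlg UMIs. Of 10109 genes, 1465 were called higher in Retnlg-high than in Ccl3/Ccl4-rich cells (14.5%) and 2128 lower (21.1%), and with median scaling 1669 and 1924. Ly6g had 132 CPM in Retnlg-high and 36.7 CPM in Ccl3/Ccl4-rich cells (ratio 3.60, 3.20 to 4.06). Of 22 measured cytokine genes 18 were lower and 2 higher, Ccl3 and Ccl4 included, and with median scaling 17 and 2. Cxcl2 had 1435 CPM in Retnlg-high and 11266 CPM in Ccl3/Ccl4-rich cells (ratio 0.127, 0.125 to 0.130), and Spp1 452 CPM in Retnlg-high and 4445 CPM in Ccl3/Ccl4-rich cells (ratio 0.102, 0.0983 to 0.105). Il1b, which did not pass the rule between Retnlg-high and Retnlg-low cells, was lower here, at 3389 CPM in Retnlg-high and 5097 CPM in Ccl3/Ccl4-rich cells (ratio 0.665, 0.655 to 0.675). NF-kappaB feedback genes were lower in 12 of 14, and tissue-stage genes lower in 18 of 22 and higher in 2, with the same counts under median scaling. Chil3 did not pass the rule, at 188 CPM in Retnlg-high and 174 CPM in Ccl3/Ccl4-rich cells. Of 89 symbols of the ribosomal list 2 were higher and 3 lower, and with median scaling 4 were higher and 3 lower.

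The next comparison sets the Retnlg-high neutrophils of DPCP skin on day 2 against those of control skin on day 0, the cells that share a gate across the conditions. The groups held 1507 cells in DPCP and 85 cells in control skin. Retnlg-high neutrophils of DPCP skin had more transcripts of Wfdc17, Ifitm1, Wfdc21, Cd14 and Acod1 than those of control skin. Spp1 and Cxcl2 were also higher, but for both the T cell levels given below differed between the conditions by a similar or larger factor. Of 8209 genes 517 were higher (6.3%) and 1441 lower (17.6%), with a median log2 ratio of -0.22, and with median scaling 860 and 940. Higher genes were 26.4% of those called without and 47.8% with this scaling. Without the class II-rich cells, which held 46.1% of the UMIs of the control members, 317 of 7463 genes were higher (4.25%) and 712 lower (9.54%), and with median scaling 493 and 424. That exclusion was chosen after the data were seen and left 1460 DPCP and 71 control cells. Any difference here is one between 2 tagged samples, and condition, mouse and tag cannot be told apart.

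Retnlg itself was at 7672 CPM in DPCP and 4552 CPM in control members (ratio 1.69, 1.61 to 1.77), and without class II-rich cells at 8217 CPM in DPCP and 5731 CPM in control members (ratio 1.43, 1.35 to 1.52), below the limit of 1.5. Wfdc21 had 1989.5 CPM in DPCP and 526 CPM in control members (ratio 3.79, 3.30 to 4.36), and 3.9 (3.25 to 4.72) without class II-rich cells. Ly6g had 132 CPM in DPCP and 55.9 CPM in control members (ratio 2.37, 1.56 to 3.79, on 22 control UMIs). Mmp8 and Pglyrp1 did not pass the rule, with ratios of 1.43 (1.21 to 1.70) and 1.40 (1.24 to 1.59), and 1.13 (0.932 to 1.38) and 0.983 (0.860 to 1.13) without class II-rich cells. Csf3r had a ratio of 1.13 (1.07 to 1.20) and Cxcr2 1.36 (1.24 to 1.5), neither passing the rule.

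Wfdc17 was at 5730 CPM (5678 to 5782) in DPCP and 1026 CPM (928 to 1131) in control members. In control skin 85.1% of its UMIs were in the 14 class II-rich cells, and without these it was at 6058 CPM in DPCP and 283 CPM in control members, a ratio of 21.4 (16.7 to 28.1). Gated T cells held 275 CPM of Wfdc17 in DPCP and 264 CPM in control skin. Ifitm1 had 5418 CPM in DPCP and 919 CPM in control members (ratio 5.89, 5.32 to 6.55), and 8.47 (7.2 to 10.0) without class II-rich cells. The type I interferon response list did not follow Ifitm1 as a whole. Of its 18 measured genes 3 were higher and 4 lower, beside 6.3% and 17.6% of all genes, and with median scaling 4 and 2. Without class II-rich cells 3 were higher and 3 lower, and with median scaling 3 and 2. Acod1, the enzyme that makes itaconate, had 575 CPM in DPCP and 63.5 CPM in control members (ratio 9.06, 6.13 to 14.0), and Cd14 499 CPM in DPCP and 63.5 CPM in control members (ratio 7.86, 5.32 to 12.2). Steap4, a metalloreductase, had 484 CPM in DPCP and 68.6 CPM in control members (ratio 7.06, 4.85 to 10.7). Without class II-rich cells the ratios were 10.8 for Acod1, 13.8 for Cd14 and 11 for Steap4. Control UMIs were few, at 25 for Cd14, of which 17 lay in class II-rich cells.

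Spp1 had 452 CPM (438 to 467) in DPCP and 63.5 CPM (41.1 to 93.7, 25 UMIs) in control members, a ratio of 7.12 (4.82 to 11). Gated T cells had 275 CPM (248 to 304) in DPCP and 38.5 CPM (30.5 to 48.0) in control skin. The T cell level thus differed between the conditions by a similar factor, and the part of this background in the members' ratio was not tested. Thbs1 had 326 CPM in DPCP and 33.0 CPM in control members, and 180.1 CPM in T cells of DPCP and 15.6 CPM in T cells of control skin. Cxcl2 had 1435 CPM in DPCP and 406 CPM in control members (ratio 3.53, 3.02 to 4.16), and 499 CPM in T cells of DPCP and 97.0 CPM in T cells of control skin. The members' levels of Acod1 and Steap4 stood further above T cells, which had 38.2 CPM of Acod1 and 2.16 CPM of Steap4 in DPCP skin and 12.2 CPM and 2.44 CPM in control skin. The T cell level of Acod1 thus also differed between the conditions, and its part in the members' ratio was not tested. No T cell level is given here for Cd14.

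By list, 8 of 18 cytokine, chemokine and growth factor genes were higher in DPCP members and 2 lower, and with median scaling 11 and 1. Without class II-rich cells 5 were higher and 2 lower, and with median scaling 6 and 2. Osm had 177 CPM in DPCP and 33.0 CPM in control members (ratio 5.37, 3.13 to 10.1). The 2 lower ones were Ccl6 at 1392 CPM in DPCP and 2341 CPM in control members (ratio 0.594, 0.556 to 0.636) and Csf1 at 95.6 CPM in DPCP and 185 CPM in control members (ratio 0.516, 0.405 to 0.665), both also lower without class II-rich cells. NF-kappaB feedback genes were higher in 5 of 14 and, without class II-rich cells, in 6 of 14, and with median scaling in 9 and 7, with none lower on either scale. Nfkbia had 403 CPM in DPCP and 132 CPM in control members (ratio 3.05, 2.32 to 4.09) and 2.26 (1.65 to 3.19) without class II-rich cells, beside 240.0 CPM in T cells of DPCP and 99.9 CPM in T cells of control skin. Tissue-stage genes were higher in 9 of 22 and lower in 1, and with median scaling in 12 and 1. Without class II-rich cells they were higher in 8 of 20 and lower in 1, and with median scaling in 10 and 0. Pattern recognition and Fc receptor genes were higher in 9 of 18 and lower in 1, and with median scaling in 10 and 0. Without those cells they were higher in 6 and lower in 0, and with median scaling in 7 and 0. Specific granule genes were higher in 4 of 10 and lower in 1, and with median scaling in 7 and 0. Without those cells they were higher in 4 and lower in 0, and with median scaling in 5 and 0. The lower gene was Cybb, at 189 CPM in DPCP and 289 CPM in control members (ratio 0.655, 0.541 to 0.799), which did not pass the rule without class II-rich cells. Chil3, Wfdc21 and Lcn2 were higher with and without these cells, Lcn2 at 1344 CPM in DPCP and 467 CPM in control members (ratio 2.88, 2.49 to 3.35). Chil3 rests on 9 control UMIs, with 44.9% of its DPCP UMIs in 10 cells. Its log2 ratio was -0.42 between the quartiles of depth.

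The ribosomal list, S6 kinase symbols included, turned with the class II-rich cells. In all members 69 of 87 were lower in DPCP skin and none higher, at a median log2 ratio of -0.80, and with median scaling 43 were lower and none higher, at -0.58. Without class II-rich cells 2 were lower and 8 higher, at 0.20, and with median scaling 1 and 17, at 0.38. Of the 6 monocyte markers 5 were lower and none higher in all members, and with median scaling 4 and 0, and without these cells 3 were higher and none lower on either scale. Ccr2, a chemokine receptor of monocytes, had a ratio of 0.314 (0.276 to 0.358) in all members and 1.536 (1.03 to 2.41) without these cells. The genes with the lowest ratios in all members, Negr1, Upb1, Pparg, Prelid2, Cd209a, Lpl, Ryr1, Pvt1 and Slamf9, had 83.8% to 100% of their control UMIs in those 14 cells. Lpl, lipoprotein lipase, had 112 CPM in all DPCP and 937 CPM in all control members (ratio 0.119, 0.106 to 0.135) and did not pass the rule without them (ratio 0.774, 0.524 to 1.19). Ppp1r9a was the exception among the 10 lowest, with none of its 23 control UMIs in class II-rich cells and 20 of them in 10 cells. Without class II-rich cells the MHC class I genes H2-Q6 and H2-Q7, which share reads with near-identical copies, had ratios of 0.120 and 0.129 (0.0900 to 0.190), and Ighm, the IgM heavy chain, 0.269 (0.197 to 0.376).

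The genes with the highest ratios in all members were Mfge8, Saa3, Igfbp6, Thbs1, Upp1, Stfa1, Acod1, Soat2, Chil3 and Cxcl3, and each rests on at most 25 control UMIs. Igfbp6, a binder of insulin-like growth factors, was spread over many cells, found in 670 of 1507 DPCP members, at 183 CPM in DPCP and 17.8 CPM in control members (ratio 10.3, 4.97 to 25.6). All 7 of its control UMIs lay in class II-rich cells, so no control UMI remained without those. Against a floor of 3 counts over the 71 control cells the ratio was 13.7, a value set by the floor and not the end of an interval. Pam, which amidates peptides, and Pde7b, a phosphodiesterase, were among the highest without class II-rich cells. Pde7b had 518 CPM in DPCP and 51.8 CPM in control members there (ratio 10.0, 5.59 to 20.1), and Pam 226 CPM in DPCP and 14.1 CPM in control members on 3 control UMIs (ratio 16, 5.45 to 77.5). Saa3, an acute-phase apolipoprotein, had 71.9% of its DPCP UMIs in 10 cells, and Stfa1, a cysteine protease inhibitor with close copies that share reads, had 35%.

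**Figure D5:**
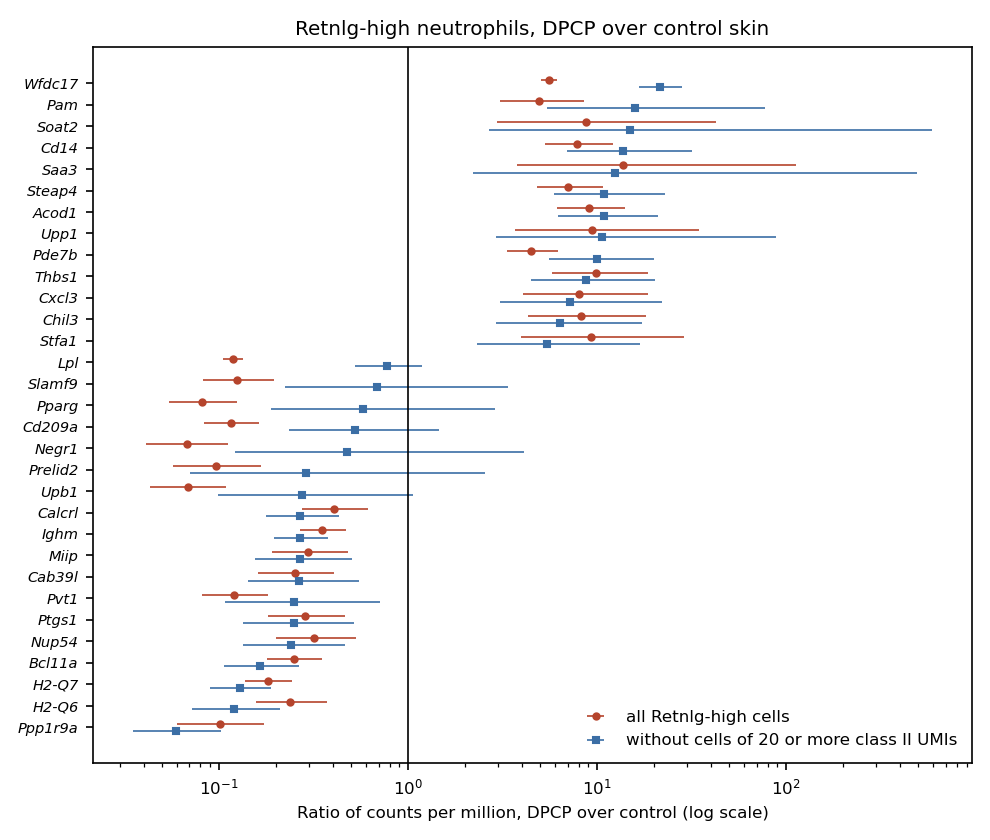
Ratio of CPM in Retnlg-high neutrophils of DPCP over control skin (log axis) for 31 genes with the highest and lowest ratios, as points with exact 95% intervals, in all members (circles) and without cells of 20 or more class II UMIs (squares). Wfdc17 stands at 5.59 in all members and 21.4 without those cells, Lpl at 0.119 and 0.774, and Mfge8, Igfbp6 and Ryr1 are not drawn because no control UMI remained.

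The contrast of Retnlg-high with Retnlg-low neutrophils rests in control skin on 85 Retnlg-high and 21 Retnlg-low cells, and is given beside that of DPCP skin without a test of their difference. Without class II-rich cells, 71 Retnlg-high and 14 Retnlg-low control cells remained. Wfdc21 then had a Retnlg-high over Retnlg-low ratio of 4.03 in DPCP and 3.58 (1.68 to 9.09) in control skin. Pglyrp1 had 3.76 in DPCP and 2.66 (1.65 to 4.57) in control skin, and Mmp8 2.53 in DPCP and 5.77 (2.19 to 21.6) in control skin. Slc7a11, Cxcl2 and Il1rn were lower in Retnlg-high cells of DPCP skin, while their intervals in control skin include 1, at 0.664 (0.348 to 1.35) for Slc7a11, 1.08 (0.626 to 1.98) for Cxcl2 and 1.0 (0.515 to 2.13) for Il1rn. Spp1 had 11 UMIs in Retnlg-high and 5 UMIs in Retnlg-low control cells, too few to place.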

How the data were processed

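The deposited matrix holds raw UMI counts per gene and cell barcode, which the authors made with Cell Ranger 7.0.0 and an mm10 2020-A reference, per the file headers and the deposited configuration, while the submitters' processing notes name Cell Ranger 6.1.1 and Seurat 4.0.1. The 2 conditions were told apart by CellPlex tags in 1 pool, per the deposited aggregation table. UMIs were summed over the cells of a group and scaled to CPM, whose intervals are exact Poisson ones, with exact binomial (Clopper-Pearson) intervals for shares and exact conditional binomial intervals for ratios, at 95%. A ratio against 0 counts was set against a floor of 3 counts over the group. Summed UMIs were 8138590 and 393855 in Retnlg-high cells of DPCP and control skin, and 4485567 and 239157 in Retnlg-low cells. UMIs are molecules, but intervals leave out the variation between mice, cells and pools, so no p-value was computed. No doublet caller was run. One gene is not reported here by name, though the counts over lists and all genes include it.

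The named genes are the 15 highest and 15 lowest ratios of Retnlg-high over Retnlg-low cells and the 10 highest and 10 lowest of DPCP over control members. They needed at least 50 summed UMIs, at least 50 CPM in the higher group and a ratio of at least 1.5 (2 between conditions). Mitochondrial, ribosomal and unnamed genes were not named, and list members could be named beside the rule. Wfdc17, Ifitm1, Steap4, Pam, Pde7b, Ighm and the H2-Q genes were singled out after their values were seen. Members and gene lists were chosen with earlier results of these data known. Cells over 20 Retnlg UMIs were split at 50 after the data were seen, and so were the alternatives without cells of 20 or more class II UMIs or over 15000 UMIs chosen. The code was tested on simulated data and ran under Python 3.11.15, numpy 2.4.6, scipy 1.17.1 and pandas 2.3.3.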

Additional observations from a re-analysis of the deposited data

How the results depend on the processing

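The share of Retnlg-high cells among gated DPCP neutrophils, 59.0%, became 63.6% at a minimum of 2 Retnlg UMIs, 52.7% at 5, 55.5% at 1 per 1000 UMIs, 63.2% with at least 50 UMIs of S100a8 and S100a9, 65.7% between the quartiles of depth (3164.5 to 5860.25 UMIs), 55.7% without cells of 5 or more class II UMIs and 52.9% with an own-tag share of at least 80%. The control share, 80.2%, became 65.1% at a minimum of 5, 90.5% with the higher S100 minimum and 91.2% between the quartiles.

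Between Retnlg-high and Retnlg-low cells, median scaling gave 1592 higher and 1154 lower genes, against 681 and 3336. Lower genes numbered 2053 between the quartiles of depth, 1692 without cells of 5 or more class II UMIs, 1802 at a minimum of 200 summed UMIs, and 1452 and 2011 after thinning to 1000 and 2000 UMIs. Fewer cells, UMIs or genes enter these settings. For DPCP over control members, 517 genes were higher and 1441 lower. The counts were 202 and 522 between the quartiles, 190 and 424 without cells of 5 or more class II UMIs, 317 and 712 without those of 20 or more, 860 and 940 with median scaling, 175 and 332 at 1000 UMIs, and 239 and 586 at 2000 UMIs. At 200 summed UMIs 863 were lower.

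Of 570 values of the 30 named genes of the first comparison over the alternatives, 2 changed sign, both of Mfge8, with a log2 ratio of -0.13 without cells of 5 or more class II UMIs and -0.062 without those of 20 or more. Of 362 values of the 20 genes of the second, 3 changed sign: Chil3 at -0.42 and Slamf9 at 0.51 between the quartiles of depth, and Lpl at 0.23 without cells of 5 or more class II UMIs. The control groups limit every comparison between conditions, since 85 Retnlg-high and 21 Retnlg-low cells came from 1 tagged sample. No paired analysis was possible because each condition has 1 tagged sample and no result comes from a test.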
